A study of Mus musculus with 17 samples.

Results

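The comparison described here is between mouse tumour lines with high and with low RNA of Yap1. RNA sequencing covered 17 libraries, of which 10 came from tumour lines, and the sides were chosen by 1 measured value, the Yap1 level of each line in CPM (a gene's count scaled to a library total of 1000000). The 5 lines at 1000 CPM or more form the high side and the 5 lines under 1000 CPM the low side. The labels name no such groups. All cells came from C57BL/6 mice with the R172H knock-in allele of p53, and none received a treatment. The other libraries, described beside the lines, are 3 of bone marrow mesenchymal stem cells (MSC) and 4 of clones of first-generation tumour line cells, 2 of them titled p53 Mut (Mut clones) and 2 titled p53 KO (KO clones).

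Tumour lines of the first generation (TL1) came from tumours of the MSC, and those of the second generation (TL2) from tumours grown after injection of a first-generation line. The number in parentheses in a title was kept in each name, with the letter a or b where a generation holds the number more than once. The high side consists of TL1 1a, TL1 2a, TL1 2b, TL2 2a and TL2 2b, and the low side of TL1 1b, TL2 1, TL1 3a, TL1 3b and TL2 3. Wherever values of all lines are given below, they follow this order. Of the 5 high lines 4 carry the number 2 and all 3 lines of number 3 are low, so side and number largely coincide and cannot be told apart. Number 1 alone has lines on both sides, 1 high and 2 low. Generation is balanced, with 3 TL1 and 2 TL2 lines on each side. Per the labels, the plates for tumour cells had an agar coat and their medium held leukaemia inhibitory factor, whereas the MSC were kept in MSC medium. The labels do not say whether a line is 1 clone, whether same-numbered libraries share an animal, or from which line the clones came.

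YAP, the product of Yap1, is a transcriptional coactivator. The Hippo kinases, MST and LATS, phosphorylate it and hold it in the cytoplasm, and when it enters the nucleus it binds TEAD proteins and raises genes such as Ankrd1, Cyr61 and Ctgf. Birc2 and Birc3, which lie beside Yap1 in the mouse genome, encode cIAP1 and cIAP2, ubiquitin ligases that act in tumour necrosis factor and NF-kB signalling. The segment that holds these genes is known for being amplified in some tumours of mouse and human, and its copy number was not measured in the data used here.

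Promoter sequences are printed for Yap1 and for 3 listed YAP-TEAD target genes that the results below turn on, Ajuba, Ankrd1 and Cyr61, to show where the TEAD motif lies in each. They are 250 bases before the start of a transcript, 5′ to 3′, from RefSeq on GRCm38.p6, and all 4 genes lie on the minus strand. The Yap1 transcript starts at 8004596, inside the gene as annotated, so 42 bases that lie within the gene were left out and 208 are shown. The windows are chr9:8004639-8004846 for Yap1, chr14:54577662-54577911 for Ajuba, chr19:36119845-36120094 for Ankrd1 and chr3:145649986-145650235 for Cyr61, which the annotation calls Ccn1. Capitals mark the TEAD motif GGAATG or its reverse complement CATTCC.
Yap1: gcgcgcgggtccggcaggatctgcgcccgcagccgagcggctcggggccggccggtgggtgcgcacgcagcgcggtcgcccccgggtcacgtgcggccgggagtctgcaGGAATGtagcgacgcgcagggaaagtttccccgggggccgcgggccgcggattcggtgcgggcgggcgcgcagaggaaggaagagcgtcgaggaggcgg
Ajuba: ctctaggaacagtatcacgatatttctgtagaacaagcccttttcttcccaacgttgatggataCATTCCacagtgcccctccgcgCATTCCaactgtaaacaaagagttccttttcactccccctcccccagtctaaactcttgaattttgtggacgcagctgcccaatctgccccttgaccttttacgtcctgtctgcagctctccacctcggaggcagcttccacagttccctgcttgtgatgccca
Ankrd1: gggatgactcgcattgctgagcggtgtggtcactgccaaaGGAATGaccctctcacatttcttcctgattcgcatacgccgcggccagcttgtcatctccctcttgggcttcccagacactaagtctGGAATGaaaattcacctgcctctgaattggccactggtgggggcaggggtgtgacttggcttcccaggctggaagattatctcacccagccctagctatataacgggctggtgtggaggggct
Cyr61: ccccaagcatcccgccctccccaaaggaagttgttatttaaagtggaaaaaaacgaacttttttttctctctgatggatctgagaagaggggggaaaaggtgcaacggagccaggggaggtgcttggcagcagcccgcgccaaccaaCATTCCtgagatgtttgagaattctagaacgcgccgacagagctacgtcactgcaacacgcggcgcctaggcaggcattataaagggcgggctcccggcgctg
The motif begins 141 bases before the transcript start in Yap1, 186 and 164 bases before it in Ajuba, 210 and 123 in Ankrd1, and 103 in Cyr61. Read on both strands over the 250 bases before and 50 after each start, it was present in 14.7% of 32851 promoters. Of 21 promoters found for 19 of the 27 listed target genes, 8 held it. A match describes these letters and does not show binding.

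Totals of the 10 lines ranged from 12540701 to 15962341 counts. The sum of 6 macrophage markers was 4.12 to 8.74 CPM in high and 4.60 to 20.6 CPM in low lines, with Ptprc at no more than 0.29 CPM in any line. Of the mesenchymal markers, Thy1 stood at 0 to 0.871 CPM in high and 0.125 to 3.27 CPM in low lines, against 4.86 to 106 CPM in MSC, while Col1a2 reached at least 648 CPM in every line. Across genes, log2 CPM correlated at r = 0.817 to 0.952 between lines of the same number and side, over 10 pairs. TL1 1a correlated at r = 0.902 and 0.909 with the 2 low lines of its number, and at r = 0.877 to 0.902 with the other high lines.

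Yap1 (chromosome 9, 7931999 to 8004638, mm10) set the sides, so its values are a description and carry no test. It stood at 1348, 2624, 2558, 2034 and 1413 CPM in the high lines and at 181, 92, 200 and 137 CPM in the first 4 low lines and 143 CPM in TL2 3. The lines nearest the dividing value were TL1 1a at 1348 and TL1 3a at 200 CPM, 6.75-fold apart, with no line between them. Mean Yap1 was 1995 ± 607 CPM (SD, n = 5) on the high and 151 ± 42 CPM (SD, n = 5) on the low side. The MSC lay at 194, 185 and 165 CPM, within the range of the low lines. In TL1 1a Yap1 was 7.43 and 14.7 times its level in TL1 1b and TL2 1, the low lines of the same number.

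**Figure D1:**
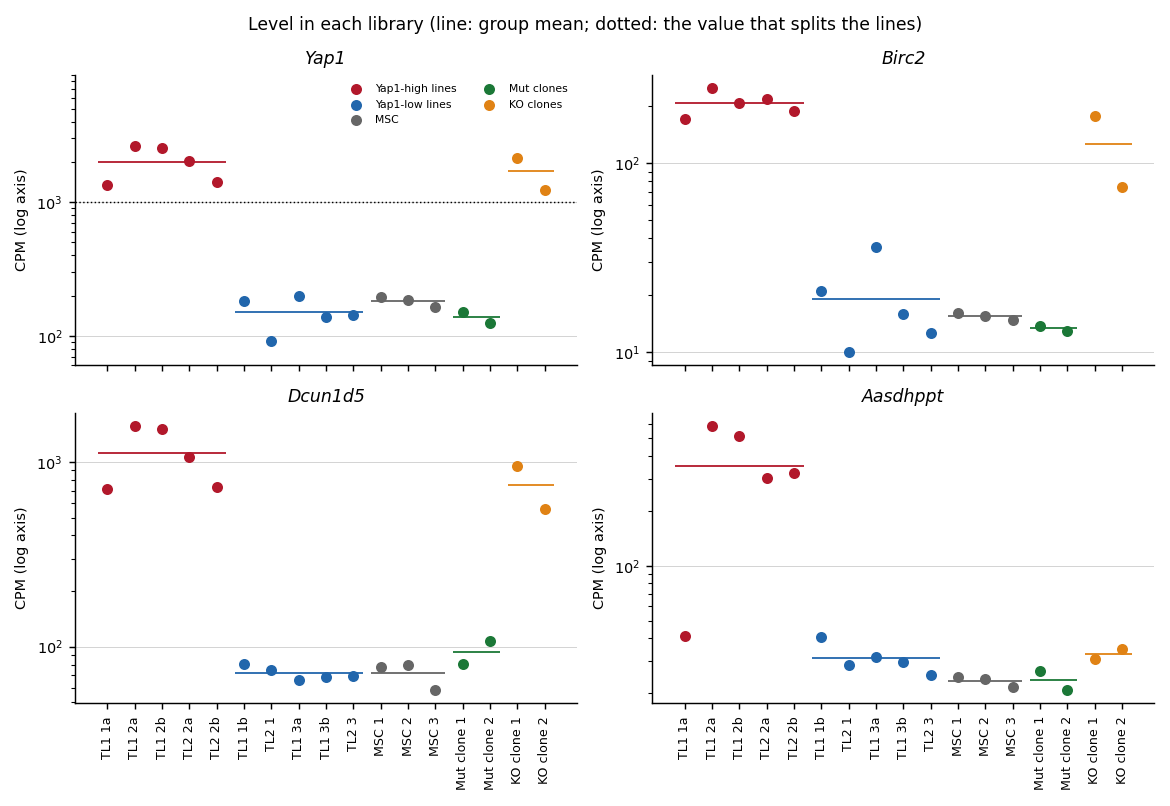
CPM (log axis) of Yap1, Birc2, Dcun1d5 and Aasdhppt in each of the 17 libraries, with a horizontal line at each group mean and a dotted line at 1000 CPM of Yap1. The 5 high lines and the 2 KO clones stand above all others for the first 3 genes, while Aasdhppt is high in the 4 lines of number 2 alone and stands at 41.2 CPM in TL1 1a.

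The high lines carried more RNA of a run of neighbouring genes as well. Within 5 Mb of Yap1 the table holds 38 genes, and all 5 high lines exceeded all 5 low lines for 14 of them, whereas none was lower in every high line. Of the 12282 tested genes not placed in this window, 1.77% were higher in every high line. The window belongs to the choice of the sides, so nothing is read from that contrast. Of the 38 genes 19 passed the filter on low counts and 3 had no count in any line. Among the 17 genes with at least 10 CPM on either side, 12 stood higher in every high line. Together the window genes took 0.468% to 0.869% of all counts in high and 0.0478% to 0.122% in low lines.

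Birc2 and Tmem123 lie close to Yap1, with Birc3 between them and Yap1. Birc2 (7818226 to 7837131) was at 170, 250, 207, 218 and 189 CPM in the high and at 21, 9.96, 36.1, 15.9 and 12.6 CPM in the low lines. The sides did not overlap, and the means differed 10.8-fold. Tmem123 (7764077 to 7794333), which encodes a transmembrane protein, was at 1614, 1712, 2050, 1995 and 1365 CPM against 245, 116, 384, 113 and 109 CPM, a 9.03-fold difference of the means. Birc3 differed less, at 44.4 to 124 CPM in high and 5.89 to 25.9 CPM in low lines.

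Further along the same side, Dcun1d5 (7176590 to 7220880), promotes attachment of NEDD8 to cullins. It stood at 711, 1571, 1514, 1066 and 728 CPM in high lines and at 80.3, 74.7, 66, 68.2 and 69.1 CPM in low lines. The low lines lay close together and overlapped the MSC, at 58 to 79.5 CPM. Dync2h1, the heavy chain of the dynein that works inside cilia, overlaps 1 end of Dcun1d5 by coordinates and was at 124 to 181 CPM against 10.1 to 29.2 CPM. The strand setting of the counting is not given in the sources used here, so reads of such overlapping genes cannot be told apart. Pdgfd, a ligand of PDGF receptor beta, ranged from 91.1 to 392 CPM in high and 1.87 to 64.8 CPM in low lines. Mmp13, a collagenase, ranged from 5.9 to 46.9 CPM against 0.48 to 2.55 CPM, and Mmp10, the other metalloproteinase gene of the window that passed 10 CPM in a line, was at 0.288 to 15.6 CPM against 0.0797 to 3.07 CPM. MSC values of Mmp13, 12.7 to 44.3 CPM, overlapped the high lines, and the KO clones had 1.35 and 1.55 CPM. Casp12, an endoplasmic reticulum caspase, ranged from 197 to 356 CPM against 14.6 to 139 CPM.

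A separate stretch of 3 genes, about 3.6 Mb before Yap1, was high in the lines of number 2 and not in TL1 1a. Aasdhppt, which attaches phosphopantetheine to carrier proteins, was at 587, 515, 303 and 324 CPM in the 4 lines of number 2. In TL1 1a it stood at 41.2 CPM, beside 40.7, 28.4, 31.6, 29.5 and 25.3 CPM in the low lines. The neighbours Kbtbd3 and Msantd4 followed the same division: Kbtbd3 was at 15.3 to 35.4 CPM in number 2 and 2.67 CPM in TL1 1a, and Msantd4 at 461 to 755 CPM and 86.2 CPM. Genes before and after this stretch, Alkbh8, Cwf19l2 and Casp4, overlapped between sides. Counting genes at 10 CPM or more and over 3 times the highest low line, TL1 1a had 6, the 4 lines of number 2 shared 9, and both KO clones shared 3. On the other side of Yap1, 9230110C19Rik was at 49.9 to 210 CPM against 7.33 to 17.1 CPM. The next gene at 10 CPM or more, Arhgap42, was at 1.73 to 22.1 CPM in high and 16 to 78.8 CPM in low lines.

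The clones, which the division did not use, fell on both sides of 1000 CPM. Their Yap1 levels were 2156 and 1234 CPM with p53 knocked out and 151 and 124 CPM in the Mut clones. Birc2 (178 and 74.1 CPM), Dcun1d5 (952 and 555 CPM) and Tmem123 (1675 and 899 CPM) were also high in the KO clones, and in the Mut clones they lay at 12.9 to 13.7, 80.2 to 107 and 120 to 150 CPM. Aasdhppt, in contrast, stood in them at 30.7 and 34.8 CPM, within the range of the low lines. Trp53 itself had 77 and 82.8 CPM in KO and 361 and 288 CPM in Mut clones. Other genes differed between the clones too: Myc was at 131 and 126 CPM in KO and 1780 and 2043 CPM in Mut clones. Myod1 was at 312 and 307 CPM in KO and 0 and 0.164 CPM in Mut clones. Knockout of p53, the Yap1 level of a clone and these other differences coincide and cannot be told apart.

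**Figure D2:**
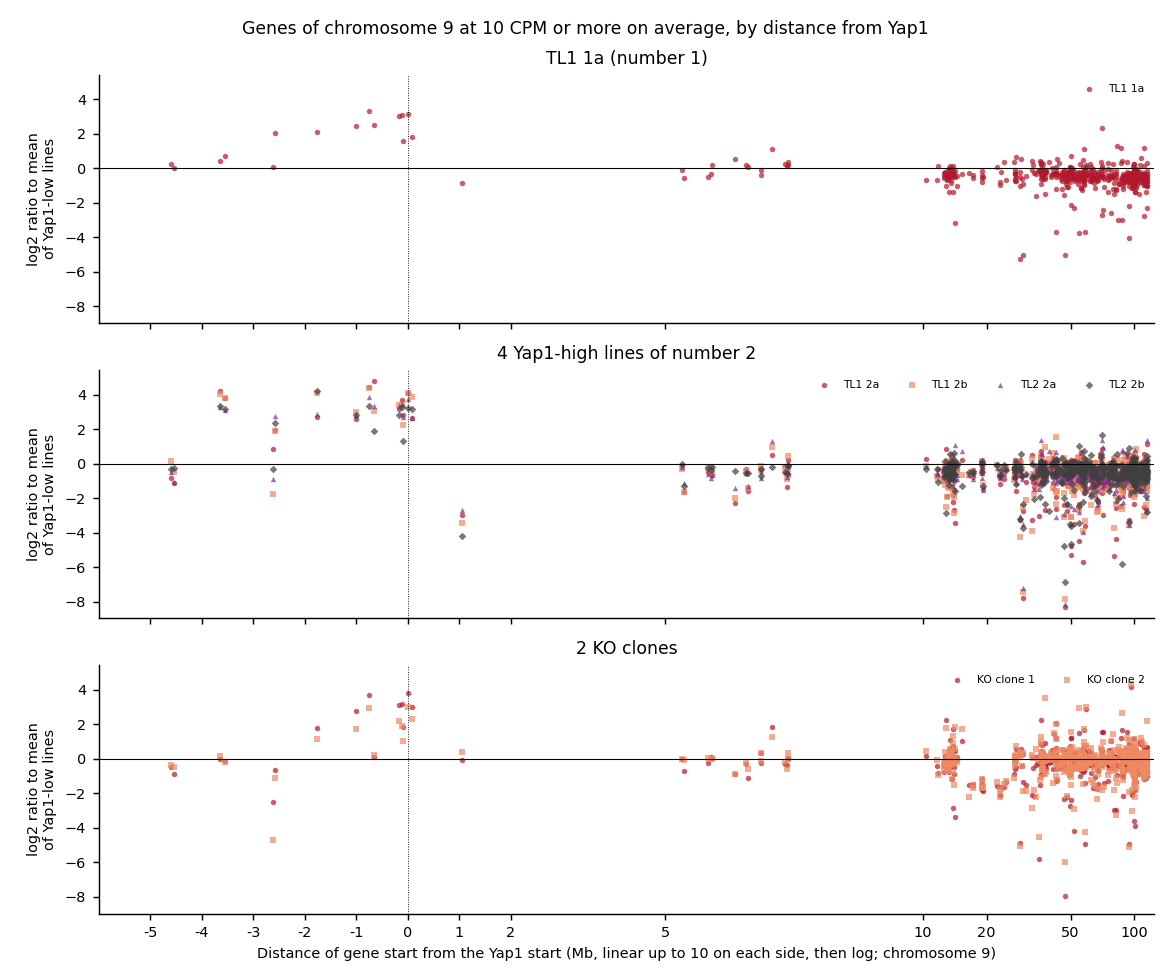
Log2 ratio of CPM to the mean of the 5 low lines for each gene of chromosome 9 at 10 CPM or more on average, against distance from the Yap1 start in Mb (linear up to 10, then logarithmic), in TL1 1a, in the 4 high lines of number 2 and in the 2 KO clones. Most points near 0 Mb stand well above 0 in all 3 panels, but Mmp13 lies at 0.10 and 0.25 in the KO clones. The stretch near 3.6 Mb before Yap1 stands well above 0 in the middle panel alone, and the rest of the chromosome lies mostly below 0 in the high lines.

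Genes not placed in the window were compared between the sides with the quasi-likelihood test of edgeR, and genes with a Benjamini-Hochberg adjusted p under 0.05 over all 12301 genes are called. Those 12301 include 19 window genes, which belong to the choice of the sides. Small p-values of window genes lower the adjusted p of other genes, and an adjustment without them was not made. Calls near 0.05 may therefore depend on them, and all 11 genes called higher had an adjusted p of 0.0324 to 0.0497. In bulk libraries of this kind, fewer cells of a type and less RNA per cell cannot be told apart. Of 12237 genes with a position outside the window, 10 were called higher in the high lines (0.0817%) and 23 were called lower (0.188%). With the tested genes that have no position in the annotation used, which may lie inside or outside the window, these numbers were 11 (0.0896%) and 23 (0.187%) of 12282. The count depends on single lines. It grew to 95 higher and 170 lower without TL1 1a, to 117 and 157 without TL2 1 and to 63 and 39 without TL1 3a, and it was 0 to 2 higher and 5 to 10 lower when any 1 of the other 7 lines was left out. With the lines of each number and side summed to 1 library no gene was called by edgeR, 592 genes having an unadjusted p under 0.05.

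The genes called lower include 5 that stayed called whichever single line was left out: Ecscr, Epb4.1, Hspa12b, Cacnb2 and Arid4a. As 4 of the 5 high lines carry number 2, leaving out 1 line cannot show whether a call depends on that number. None of these 5 genes was called with the number as a replicate block or with the lines of each number and side summed. Ecscr (chromosome 18, 35713086 to 35722413) encodes a surface protein best known from endothelial cells. It stood at 0.0762, 0.206, 0.218, 0.13 and 0.144 CPM in the high lines, 1 to 3 reads in each, and at 7.27, 12.7, 21.8, 8.61 and 29.2 CPM in the low lines. The log2 change was -6.55 (SE 0.55, adjusted p = 0.000603). MSC values of Ecscr, 0.145 to 0.475 CPM, lay below every low line and near the high lines. The sum of 4 endothelial markers was 0.325 to 1.6 CPM in high and 0.752 to 3.59 CPM in low lines, with Cdh5 at no more than 0.439 CPM and Tie1 at no more than 0.3 CPM in any line.

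Epb4.1 (chromosome 4, 131923413 to 132075346), protein 4.1 of the membrane skeleton, was at 1.3, 3.51, 5.52, 2.01 and 1.73 CPM in high and 97, 43.7, 51.3, 117 and 134 CPM in low lines, and its log2 change was -4.89 (SE 0.51, adjusted p = 0.00276). The MSC, at 22.8 to 50.4 CPM, lay above every high line. Hspa12b, a distant member of the heat shock protein 70 family, was at 3.51, 1.93, 1.52, 3.05 and 1.58 CPM against 33.1, 16.9, 22.8, 12.8 and 20.5 CPM (log2 change -3.14, SE 0.35, adjusted p = 0.00405). Here the MSC, at 3.84 to 6.75 CPM, lay below every low line. Cacnb2, a calcium channel beta subunit, was at 5.87, 6.88, 3.92, 3.31 and 4.32 CPM against 25.9, 18.3, 18.3, 29.6 and 27.8 CPM (log2 change -2.25, SE 0.25, adjusted p = 0.00444). Its MSC values, 2.45 to 4.99 CPM, lay below every low line. Arid4a, a chromatin protein that binds the retinoblastoma protein and that was named after its values were seen, was at 17.5, 12.2, 14.5, 12.5 and 14.2 CPM against 34.2, 31.4, 34.1, 43.5 and 34 CPM (log2 change -1.27, SE 0.16, adjusted p = 0.0111). For Arid4a the MSC, at 25.2 to 30.6 CPM, lay between the sides.

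Signalling genes were also among those called lower. Grb10, an imprinted adaptor that restrains insulin receptor signalling, was at 0.791 to 25.8 CPM in high and 183 to 422 CPM in low lines (log2 change -4.81, adjusted p = 0.038), with MSC at 408 to 615 CPM. Grem1, a secreted antagonist of BMP, was at 0.325 to 4.12 CPM against 19.4 to 45.7 CPM (log2 change -3.85, adjusted p = 0.024), and here the MSC, at 2.61 to 4.91 CPM, lay near the high lines. Qpct, which forms pyroglutamate at protein ends, was at 0.91 to 7.39 CPM against 27.6 to 50 CPM. Arhgef3 was at 2.1 to 10.3 CPM against 23.2 to 44.2 CPM, and Nrn1, neuritin, at 28.4 to 59.1 CPM against 63.1 to 226 CPM. MSC values lay within the high lines for Arhgef3, at 2.83 to 7.14 CPM, and overlapped both sides for Nrn1, at 34.2 to 113 CPM. The other genes of the naming rule that were called lower were Hdgfrp3, Gramd1b and Sdccag8. These 3 genes and the 5 genes before them lost their calls without TL1 2a, where the adjusted p was 0.0966 for Grb10 and 0.0713 for Grem1. Outside the rule, the genes called lower were Abcb9, Ccl27a, Csnk1g1, Cspg5, Dock10, Dst, Gphn, Ift140, Kansl3 and Slc2a6, chosen here because they complete the count.

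None of the 11 genes called higher stayed called in each of the 10 fits that left 1 line out. Ajuba (chromosome 14, 54567469 to 54577661), a LIM protein that binds and restrains LATS kinases, was at 121, 195, 190, 184 and 155 CPM in high and 77.5, 69.6, 101, 61.1 and 59 CPM in low lines. Its log2 change was 1.25 (SE 0.21, adjusted p = 0.0454). Ltbr (chromosome 6, 125306571 to 125313885), the lymphotoxin beta receptor, was at 114, 160, 177, 174 and 162 CPM against 83.8, 87.1, 77, 63.8 and 72.4 CPM (log2 change 1.08, SE 0.18, adjusted p = 0.0454). MSC values of both genes, 82.5 to 112 CPM and 112 to 153 CPM, overlapped the span of the lines. Cenpn, a kinetochore protein, Mphosph6, a cofactor of the RNA exosome, Ptms, parathymosin, Rap2a, a small GTPase, and Nupl1, a nucleoporin, had log2 changes of 1.39, 1.32, 1.19, 0.82 and 0.75. Cldn4, a claudin of tight junctions, stayed low on both sides, at 0.78 to 3.52 CPM against 0.125 to 0.45 CPM (log2 change 3.10). It was the 1 called gene of 5 tested on the epithelial list, whose other 4 had negative changes, 2 of them at an unadjusted p under 0.05, and the list median was -1.53. The sum of 4 epithelial markers was 2.21 to 62.1 CPM in high and 11.3 to 323 CPM in low lines.

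Outside the naming rule, Pak6, AK129341 and H19 were called higher, with log2 changes of 2.60, 3.91 and 11.33. AK129341 has no position in the annotation used, so it cannot be placed outside the Yap1 window. It was at 36.1, 53.7, 119, 20.3 and 48.6 CPM in high and 4.32, 2.07, 1.2, 6.62 and 5.45 CPM in low lines, and at 75.9 and 39.5 CPM in the KO and 11.4 and 13.3 CPM in the Mut clones. Like many genes of the window, it was high in the high lines and in the KO clones. H19, an imprinted long noncoding RNA, did not follow the sides: it was at 233, 1770, 2028 and 5153 CPM in the lines of number 2 and at 0.686 CPM in TL1 1a, while the low lines lay at 0.125 to 1.68 CPM. Uncalled genes with no overlap between sides that fill the rule for higher genes were Them6, Lfng, Gcsh, Mtmr9 and Pinx1, with adjusted p between 0.0517 and 0.0523. They were called under some other settings. Of these, Lfng, which modifies Notch receptors, was at 19.3 to 45.4 CPM in high and 3.36 to 14.7 CPM in low lines.

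**Figure D3:**
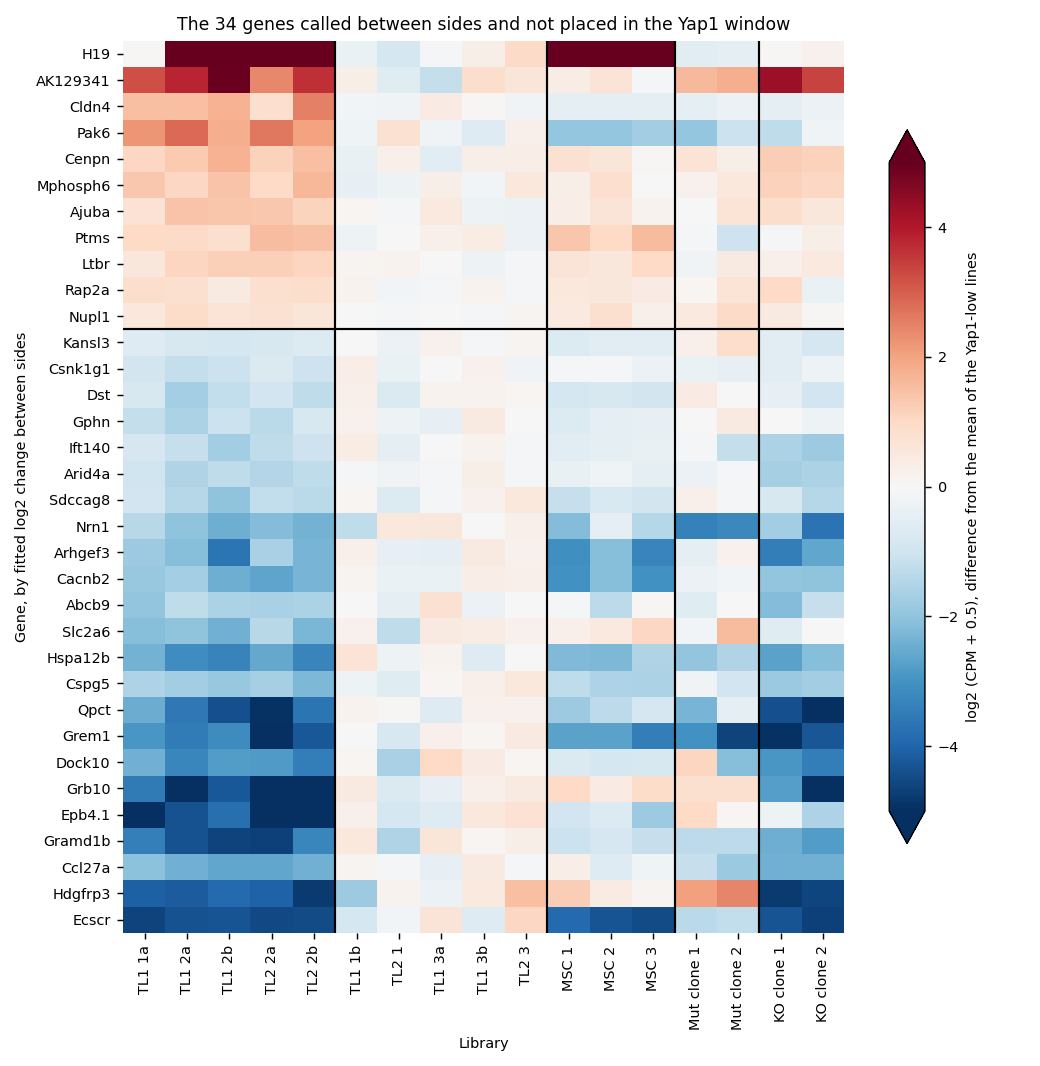
Colour gives log2 (CPM + 0.5) minus the mean of the 5 low lines for the 34 genes called between sides and not placed in the Yap1 window (rows), in the 17 libraries (columns, groups divided by vertical lines); the horizontal line divides the 11 genes called higher from the 23 called lower. H19 is pale in TL1 1a, and the lower genes are blue in every high line.

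The clones had no part in the division. Of the 20 genes called lower that could also be tested in the clones, 16 had both KO clones below both Mut clones, against 40.1% of all 11826 genes tested in both fits. In 7 the difference between clones was called by edgeR in the same direction: Arhgef3, Arid4a, Cacnb2, Ecscr, Hdgfrp3, Kansl3 and Sdccag8. In the clones, 12% of 12219 genes were called lower and 14.1% were called higher. Ecscr was at 0.225 and 0.0736 CPM in the KO and 5.2 and 5.57 CPM in the Mut clones. Hdgfrp3, a relative of hepatoma-derived growth factor, was at 0 and 0.0736 CPM in the KO and 56.7 and 73.4 CPM in the Mut clones, and at 0 to 0.436 CPM in high and 3.36 to 38.1 CPM in low lines. Of 7 genes called higher that have a position and were tested in the clones, 3 had both KO clones above both Mut clones, against 28.8% of all genes, and Mphosph6 was called in that direction. No gene was called in the opposite direction. Epb4.1, Hspa12b, Ajuba and Ltbr were not called between the clones.

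Of 27 listed target genes of YAP and TEAD that were tested, Ajuba alone was called higher and none lower. An unadjusted p under 0.05 was reached by 9 of them (33.3%), 6 of these lower in the high lines, beside 2216 of 12282 genes (18%), 1295 of these lower. In every high line 1 target was higher and 2 were lower than in every low line, where all genes gave 1.77% and 2.9%. The fitted change was positive for 13 and negative for 14, with a median log2 change of -0.03, beside -0.01 over all 12282 genes. Ankrd1, a cardiac ankyrin repeat protein and a classical YAP target, was at 707, 419, 473, 309 and 438 CPM in high and 1295, 654, 764, 752 and 703 CPM in low lines (log2 change -0.78, SE 0.25, adjusted p = 0.147). Cyr61, a secreted matricellular protein, was at 541, 500, 1152, 489 and 554 CPM against 819, 1051, 1464, 777 and 848 CPM (log2 change -0.56, SE 0.31, adjusted p = 0.361). Both genes overlapped between sides through 1 high line each, TL1 1a for Ankrd1 and TL1 2b for Cyr61. Ctgf, its close relative, ranged from 61.9 to 409 CPM in high and 69.2 to 373 CPM in low lines, and its fitted change of 0.01 turned negative under other scalings. Col8a1, a short-chain collagen, was below every low line in all 5 high lines, at 38.3 to 122 CPM against 137 to 326 CPM (log2 change -1.49, adjusted p = 0.072). Lats2, a target that also restrains YAP, was at 71.6 to 108 CPM against 34.7 to 85.5 CPM (adjusted p = 0.139).

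**Figure D4:**
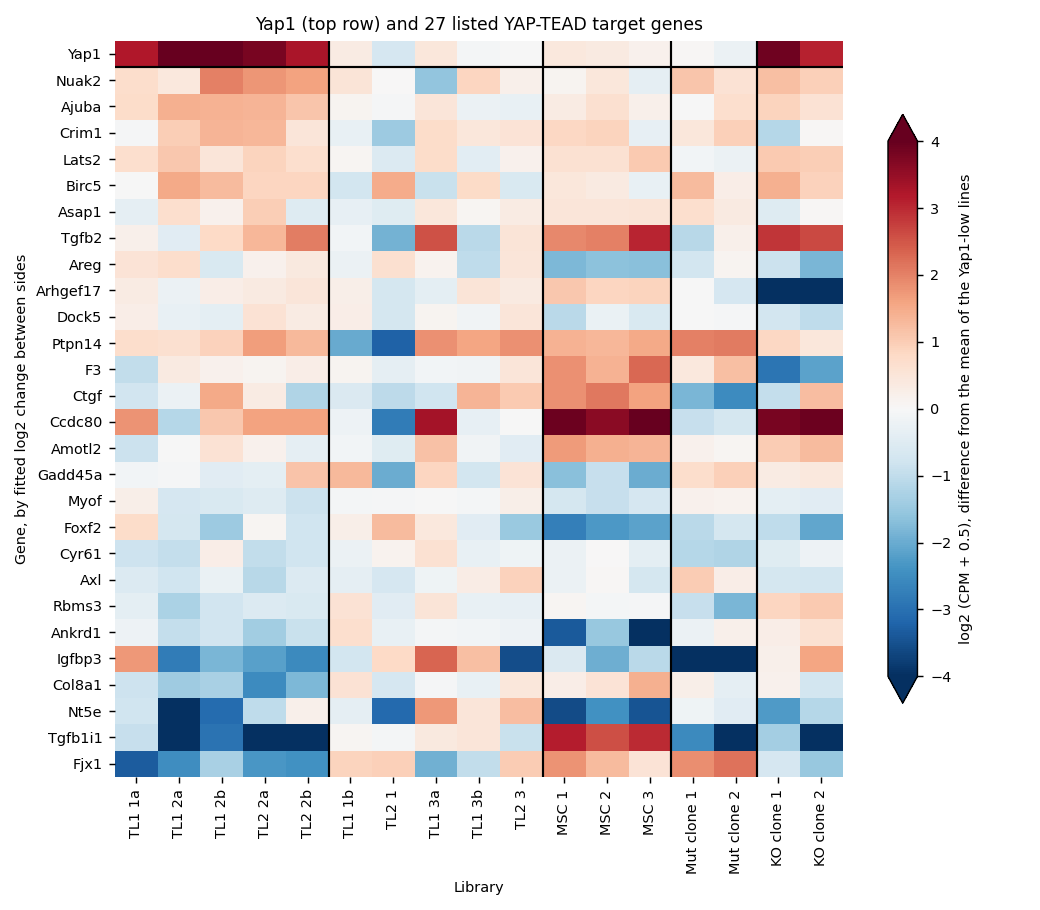
Colour gives log2 (CPM + 0.5) minus the mean of the 5 low lines for Yap1 (top row) and the 27 tested YAP-TEAD target genes, ordered by fitted log2 change, in the 17 libraries. Yap1 is deep red in the high lines and the KO clones, while 13 target genes have a positive and 14 a negative fitted change.

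The partners and regulators of YAP gave few differences. Of 31 Hippo core and scaffold genes, Ajuba was the 1 called higher and none was called lower, with a median log2 change of 0.07. Over all genes 0.0896% were called higher and 0.187% lower. No called gene stood among 15 tested partners in transcription, 5 of which (33.3%) had an unadjusted p under 0.05, beside 18% of all genes. Wwtr1, which encodes TAZ, the paralogue of YAP, was at 180, 126, 107, 124 and 130 CPM in high and 351, 191, 223, 254 and 191 CPM in low lines. These values did not overlap, but the change of -0.81 on the log2 scale (SE 0.20) had an adjusted p of 0.0884, and of 0.0438 without TL1 1a. MSC values of Wwtr1, 97.4 to 127 CPM, lay near the high lines. Tead1 was at 94.1 to 131 CPM against 110 to 209 CPM (adjusted p = 0.2), and Tead2, Tead3 and Tead4 had adjusted p values of 0.418, 0.589 and 0.603. The scaffold Sav1 and the kinase Map4k4, both activators of LATS, were lower in every high line, at 65.2 to 96.5 CPM against 103 to 182 CPM and 188 to 275 CPM against 316 to 432 CPM, with adjusted p values of 0.136 and 0.0891. Among the 31 Hippo genes 2 (6.45%) were lower and 1 (3.23%) was higher in every high line, beside 2.9% and 1.77% of all genes. An unadjusted p under 0.05 by edgeR was reached by 7 of the 31 (22.6%), beside 18% of all genes.

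Around Birc2 and Birc3, the list of inhibitor of apoptosis and NF-kB genes holds 29 members, of which these 2 lie in the window. Of the others, 26 passed the filter on low counts, and of these Ltbr was called higher and none lower, and the median log2 change was 0.00. The lymphotoxin beta receptor signals through the kinase NIK, encoded by Map3k14, and cIAP1 and cIAP2 take part in the breakdown of NIK. Nfkbia, the NF-kB inhibitor that is itself induced by NF-kB, was at 28.5, 28.4, 22.2, 28.1 and 21.4 CPM in high and 54.9, 110, 54.9, 92.1 and 51.6 CPM in low lines (log2 change -1.49, SE 0.27, adjusted p = 0.0523). Traf1, an adaptor that binds the cIAPs, was at 1.09 to 6.33 CPM against 10.8 to 21 CPM (log2 change -2.15, adjusted p = 0.0624). Neither gene overlapped between sides, as was also so for Nfkb2, at 53.6 to 98.3 CPM against 99.1 to 157 CPM (adjusted p = 0.202). Of the 26 tested members, 3 (11.5%) were lower and 1 (3.85%) was higher in every high line, beside 2.9% and 1.77% of all genes. An unadjusted p under 0.05 by edgeR was reached by 9 members (34.6%), 4 higher and 5 lower, beside 18% of all genes. Map3k14 at 11.9 to 32.2 CPM against 14 to 49.3 CPM and Xiap at 52.6 to 81.7 CPM against 57.8 to 94.3 CPM overlapped. Tnfrsf1a, the tumour necrosis factor receptor, was at 135 to 206 CPM against 76.3 to 147 CPM (adjusted p = 0.0799).

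Among the other fixed genes, the cell cycle inhibitor Cdkn2a was at 181 to 406 CPM in high and 405 to 605 CPM in low lines (log2 change -0.87, adjusted p = 0.0925). Cdkn1a, Myc, Met, Cav1, Myod1 and Trp53 overlapped between sides, with adjusted p values of 0.854, 0.193, 0.251, 0.197, 0.855 and 0.867. Myod1, the muscle determination factor, varied within both sides, from 37.2 to 582 CPM in high and from 0.134 to 596 CPM in low lines. The summed level of 4 skeletal muscle markers ran from 110 to 1947 CPM in high and 0.403 to 2632 CPM in low lines. Of 24 genes of the skeletal muscle list that were tested, 6 had a positive and 18 a negative fitted change. None was called or had an unadjusted p under 0.05 by edgeR, beside 18% of all genes at that p. Whether the muscle level of a line affects the comparison of other genes was not tested.

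Genes lower in the high lines were spread over the length of chromosome 9, the chromosome of Yap1. Outside the window, 91 of its 672 tested genes (13.5%) were lower in every high line than in every low line and none was higher, beside 2.9% and 1.77% over all genes. In the bands from 5 to 120 Mb beyond Yap1 this share ran from 5.77% to 20.1%. As a measure per library, the median log2 difference from the MSC mean was taken over 511 genes of chromosome 9 at 10 CPM or more, centred on the median over all genes of the library. It was -0.44, -0.61, -0.50, -0.52 and -0.46 in the high lines and 0.21, -0.18, 0.06, -0.14 and -0.27 in the low lines, with no overlap. The KO clones, in spite of their Yap1 level, lay at -0.09 and -0.02, among the low lines, and the Mut clones at -0.16 and -0.27. This median does not show a stretch from Dpy19l1 to Ets1, 16.5 to 24.7 Mb beyond Yap1, that was low in both KO clones. Log2 ratios to the mean of the low lines were -1.53 and -2.20 for Dpy19l1 and -1.35 and -1.27 for Ets1 in the KO clones. In the high lines they were -0.64 to -0.26 and -0.69 to -0.26. The cause was not tested.

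Chromosomes 6 and 10 also separated the sides by this median, in the opposite direction. On chromosome 6 the high lines lay at -0.09 to 0.27 and the low lines at -0.46 to -0.25, and 58 of 595 tested genes (9.75%) were higher in every high line. Ptms and Ltbr, both called higher, lie there. On chromosome 10 the high lines lay at -0.07 to 0.08 and the low lines at -0.64 to -0.18, with 32 of 602 genes (5.32%) higher in every high line. On chromosome 1, 73 of 697 genes (10.5%) were lower in every high line, yet the medians overlapped, at -0.58 to -0.13 in high and -0.30 to 0.29 in low lines. For the other 16 chromosomes the medians of the sides overlapped. Among them, 23 of 414 tested genes of chromosome 14 (5.56%) and 22 of 674 of chromosome 8 (3.26%) were higher in every high line, beside 1.77% over all genes. Of the genes called higher, Ajuba, Rap2a and Nupl1 lie on chromosome 14, and Cenpn and Mphosph6 on chromosome 8.

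**Figure D5:**
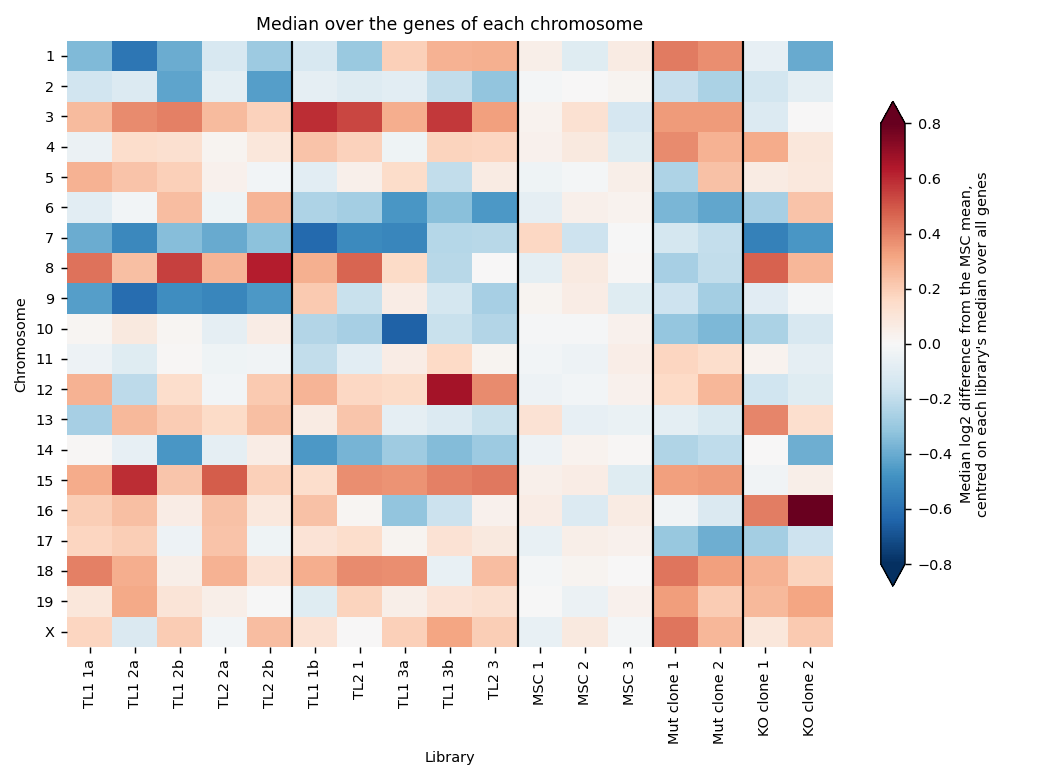
Colour gives, for each chromosome (rows) and library (columns), the median over genes at 10 CPM or more of the log2 difference from the MSC mean, centred on each library's median over all genes, with the Yap1 window left out. Chromosome 9 is blue in the 5 high lines (-0.61 to -0.44) and paler in the low lines and in the KO clones, while chromosomes 6 and 10 are bluer in the low lines.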

How the data were processed

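The authors deposited raw counts, whole numbers without normalization, of 23420 gene symbols in the 17 libraries. Per the submitters' processing notes, the tools were TopHat2 2.0.10, cutadapt, DESeq2 1.6.3 and HTSeq 0.6.1p1, and the build was mm10. Neither annotation nor strand setting is given in the sources used here. A further 4 columns match no sample and were not used.

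Levels are CPM on library totals. The sides were set by Yap1 at 1000 CPM, and genes within 5 Mb of Yap1 were left out of counts and lists, but not of the adjustment. The quasi-likelihood test of edgeR 4.0.16 (R 4.3.3), with expression filter, TMM scaling, robust estimation and Benjamini-Hochberg adjustment, was fitted to the 10 lines and, separately, to the 4 clones. It was tested on simulated data. Log2 changes are high minus low and come from this fit. Libraries may not be separate animals or cultures, so p-values reflect only how far these libraries vary, and part of that may be technical. Counts limit the precision of low genes.

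Members and lists were chosen with earlier results of these data known. There were 34 lists of 796 genes, 795 with an entry. The naming rule takes window genes with no overlap at 10 CPM or more, the 12 largest called changes in each direction under the same conditions (filled by p), up to 4 called genes per list, and fixed genes. Positions, 1-based, come from a RefSeq table of GRCm38.p6 that matched 23260 symbols, 1689 through a synonym, and genes with no position were not counted in the window. Alternatives were RLE or no scaling, no filter, no robust estimation, limma-voom (limma 3.58.1), DESeq2 1.42.0, generation or number in the model, summed lines, each line left out, library sizes without the window, and chromosome 9 left out.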

Additional observations from a re-analysis of the deposited data

Results flagged for a closer look

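Among the named genes, 12 of 120 groups of 5 lines (10%) held 1 line far from the others by Dixon's criterion, where chance flags about 1 in 20 groups. In the low lines TL1 3a stood out for 5 genes, with Met at 2621 CPM (next 427), Cav1 at 6371 CPM (next 918), Myod1 at 596 CPM (next 123), Amotl2 at 404.5 CPM (next 166) and, as the lowest, Qpct at 27.6 CPM (next 45.7). Also in the low lines, TL1 1b stood apart for Pdgfd at 64.8 CPM (next 17) and Ankrd1 at 1295 CPM (next 764). In the high lines, TL1 1a stood apart for Ltbr, the lowest at 114 CPM (next 160), and for Cdkn1a, the highest at 318 CPM (next 78.6). TL1 2b was highest for Cyr61 at 1152 CPM (next 554) and lowest for Rap2a at 25.8 CPM (next 33.1), and TL1 2a was highest for Mmp13 at 46.9 CPM (next 17.2).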

How the results depend on the processing

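All 34 called genes kept their direction under each of the 20 alternatives fitted to them, and Ecscr, Epb4.1, Hspa12b, Cacnb2 and Arid4a stayed called in 18. The 2 exceptions were the title number as a replicate block and the summed lines. The genes called higher and lower, 11 and 23, numbered 1 and 11 with generation in the model, 0 and 0 with lines summed, 19 and 41 by limma-voom and 341 and 568 by DESeq2, and 0 to 117 and 5 to 170 when 1 line was left out. With the title number as a replicate block 5 genes were higher and 2 lower, none of them among the 34, and the cause was not tested. The labels do not say that a number pairs lines. Deviations from the mean of all lines correlated at 0.06 and 0.03 between TL1 1a and the low lines of number 1. With the 4 other high lines TL1 1a correlated at -0.298, -0.110, -0.160 and -0.096, below those values, and with TL1 3a, a low line of number 3, at 0.190. Medians were -0.338 for 23 pairs of other number and side, -0.135 for 10 pairs of other number and the same side, and 0.370 for 10 pairs of the same number and side. Only number 1 informs the fit with the replicate block. RLE scaling, no scaling, no filter, no robust estimation, library sizes without the window and leaving out chromosome 9 kept both counts within 1.5 times. So did leaving out genes with no position, chosen after seeing the data, with 10 and 23. The window genes stayed in the adjustment in every setting. The 14 window genes apart were within 1.5 times under each scaling tried. The median log2 change of the inhibitor of apoptosis and NF-kB list was -0.24 with the replicate block, 0.067 with lines summed, 0.13 by limma-voom and -0.026 to 0.11 without 1 line each, and that of the partners was -0.0061 to 0.31 without 1 line each, lowest without TL1 3b.

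Directions reversed for genes that were not called. Under the replicate block, log2 changes were -0.47 for Trp53, -0.32 for Tead2, -0.94 for Tead4, -0.072 for Vgll3, -0.27 for Tnfrsf12a and 1.16 for Cdkn1a. With lines summed they were -0.026 for Trp53 and 0.53 for Cdkn1a. Ctgf, at 0.01, became -0.019 with RLE scaling, -0.10 without scaling, -0.011 without filter, -0.013 without the window, -0.016 with the replicate block, -0.044 with generation, -0.19 summed, -0.030 by limma-voom and -0.019 by DESeq2. Without 1 line each, values ran from -0.048 to 0.27 for Trp53, -0.080 to 0.73 for Vgll3, -0.33 to 0.31 for Amotl2, -0.64 to 0.43 for Ctgf, -1.26 to 0.16 for Cdkn1a and -0.14 to 2.26 for Myod1. Depth limits the low genes: Ecscr had 11 reads over all 5 high lines.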

Other observations

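Of the 34 gene lists, 29 held no called gene by edgeR. The cell cycle list had 38 of 46 genes with a positive fitted change (median 0.36 on the log2 scale, 4 genes, or 8.7%, at an unadjusted p under 0.05), beside 48.7% positive and 18% at that p over all genes. A median by line was taken over the genes of a list, as the log2 difference from each gene's median over the 10 lines. For the cell cycle list it was -0.34, 0.53, 0.51, -0.01 and 0.25 in high lines. In low lines it was -0.06, 0.67, -1.19, -0.01 and -0.74, so the sides overlapped. The glycolysis and hypoxia list had 25 of 29 with a negative fitted change (median -0.42). An unadjusted p under 0.05 was reached by 9 of them (31%), 8 lower and 1 higher. In every high line 2 genes (6.9%) of this list were lower than in every low line and none was higher, beside 2.9% and 1.77% of all genes. The medians by line of this list were -0.24 to 0.08 in the high lines and -0.29, -0.20, 0.07, 1.18 and 0.54 in the low lines, so the sides overlapped. On that list, Car9, a hypoxia-induced carbonic anhydrase, was at 0.508 to 6.47 CPM in high and 6.89 to 107 CPM in low lines (adjusted p = 0.0832). Pfkp, a phosphofructokinase, was at 30.8 to 65.6 CPM against 75.6 to 182 CPM (adjusted p = 0.0912). Medians over all 12282 genes were -0.01. Among the matrix genes, 20 of 28 had a negative change, and 3 (10.7%) had an unadjusted p under 0.05. Of the EMT factors and cadherins 14 of 16 had a negative change. An unadjusted p under 0.05 was reached by 6 of these 16 (37.5%), 5 lower and 1 higher. The medians by line of the matrix list and of the EMT list overlapped between sides as well.

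Of 17 Hox genes tested, 4 were higher in every high line, all in the Hoxa cluster on chromosome 6, and none was called. Over all genes 1.77% were higher in every high line, and on chromosome 6 it was 9.75%. Hoxa10, a limb and trunk patterning factor, was at 49.9 to 104 CPM in high and 26.8 to 44.4 CPM in low lines (adjusted p = 0.0624), and Hoxa9 at 36.2 to 68 CPM against 17.2 to 30.9 CPM (adjusted p = 0.0872). Txnrd1, a thioredoxin reductase on chromosome 10, was at 436 to 594 CPM against 133 to 283 CPM (adjusted p = 0.0687). Cflar, which encodes the caspase-8 regulator FLIP, was at 25.8 to 48.2 CPM against 62.5 to 150 CPM (adjusted p = 0.0543), and the MSC, at 31.6 to 35.9 CPM, lay within the high lines. Dkk2, an antagonist of WNT, was at 0.138 to 1.08 CPM against 1.85 to 304 CPM, with TL2 3 the highest of the low lines.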
